A study of Mus musculus with 4 samples.

Results

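Gene expression in E14 embryonic stem (ES) cells was set against that in bone marrow mononuclear cells (BMMNCs), a marrow fraction of blood cells and their precursors. The comparison rests on 1 array of each. A probe entered when its signal was well above background on at least 1 of these 2 arrays, which held for 26286 of 41174 probes and gave 20423 genes or transcripts of 33378 on the array, 12698 of them with a gene symbol. E14 is a single, widely used ES line of mouse strain 129, grown with serum and leukaemia inhibitory factor over a feeder layer of irradiated mouse embryonic fibroblasts. The cells were plated on gelatin to reduce those fibroblasts before RNA was taken, and the reduction was not measured here. The BMMNCs came from C57BL/6 mice, and the labels do not state how many animals gave them, nor their age. Strain, culture and cell type therefore differ together and cannot be told apart here. Arrays of 2 induced pluripotent stem (iPS) lines, 7 and 13, complete the series of 4 arrays. They were made from BMMNCs of Oct4-EGFP transgenic C57BL/6 mice and grown as the ES cells were, and they serve here as a yardstick of spread and as values set beside those of ES cells.

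ES cells hold the state of the early embryo's inner cells, from which all tissues of the body arise. A small circuit of transcription factors, with Oct4 (Pou5f1) and Sox2 at its centre, keeps them dividing and undecided, and leukaemia inhibitory factor sustains it through the Stat3 pathway. Marrow mononuclear cells are the opposite case: a mixture of cells at many steps of commitment, in which factors such as PU.1 (Spi1), the GATA factors and Pax5 direct granulocyte, red cell and B cell programmes. In such a bulk sample, fewer cells of a type and less RNA per cell cannot be told apart.

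All levels are log2 processed signals relative to the array's own 75th percentile, and a difference is the ES level minus the BMMNC level on that scale. With 1 array a group no test was made: sizes alone are described, and a difference of at least 4-fold, with the higher side well above background, is what "higher" counts mean below. A model that borrows the spread of the iPS lines is possible and was not run. For a gene seen on 1 array alone, "at least N-fold" is a bound: the dim side is set at its measured signal or at the faintest signal that the array called well above background, whichever is higher. The number of arrays limits the precision. The 75th percentile of signal was 1048 on the ES array and 602 on the BMMNC array, no spot was saturated, and 57.4% and 54.6% of probes were well above background.

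Of the 20423 genes or transcripts, 3655 (17.9%) were at least 4-fold higher in ES cells and 3359 (16.4%) at least 4-fold higher in BMMNCs, together 34.3%. Among the 12698 genes with a symbol, 2393 (18.8%) and 1777 (14%) were, the background for every gene list below, and the median difference of these genes was 0.15. Differences of at least 64-fold were seen for 549 genes in the ES direction and 545 in the BMMNC direction, while 8714 (42.7%) lay within 2-fold. The median size of a difference was 1.25, and 95% of genes were within 6.11. Between iPS lines 7 and 13, over the same genes, the median size was 0.10, 95% lay within 0.51, and 69 genes (0.338%) reached 4-fold. The gap between ES cells and marrow was thus far wider than that between lines of a kind, though it is not known that ES or BMMNC samples would vary as those lines do.

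**Figure D1:**
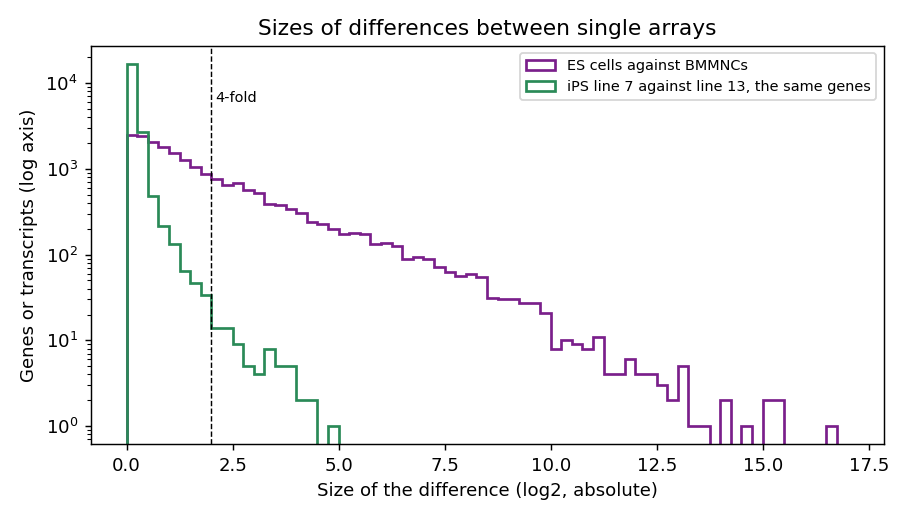
Sizes of differences (absolute log2, horizontal axis) over 20423 genes or transcripts, counted in bins on a log axis: ES cells against BMMNCs, and iPS line 7 against line 13. The dashed line marks 4-fold, which 7014 genes reached between ES cells and BMMNCs and 69 between the lines.

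Other probes of a gene mostly told the same story. Of 1266 genes past 4-fold with a further probe above background, 1223 (96.6%) had every probe on the same side, 1000 (79%) had every probe at least 4-fold on that side, and 8 had a probe at least 4-fold the opposite way. The balance between the directions depended on the scale. Control probes named E1A, a spike-in control of this array maker, were well above background on both arrays, and on the percentile scale these 7 probes read 1.53 lower on the ES array (range -1.70 to -1.44). If they are taken as the scale, every difference moves up by 1.53, and 8183 genes would be higher in ES cells against 1611 in BMMNCs, 83.6% of calls in the ES direction where the percentile gave 52.1%. Whether equal amounts were added to each sample is not stated. Differences below are therefore relative to the bulk of genes, and a value between -1.53 and 0 would turn positive on the control-spot scale.

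**Figure D2:**
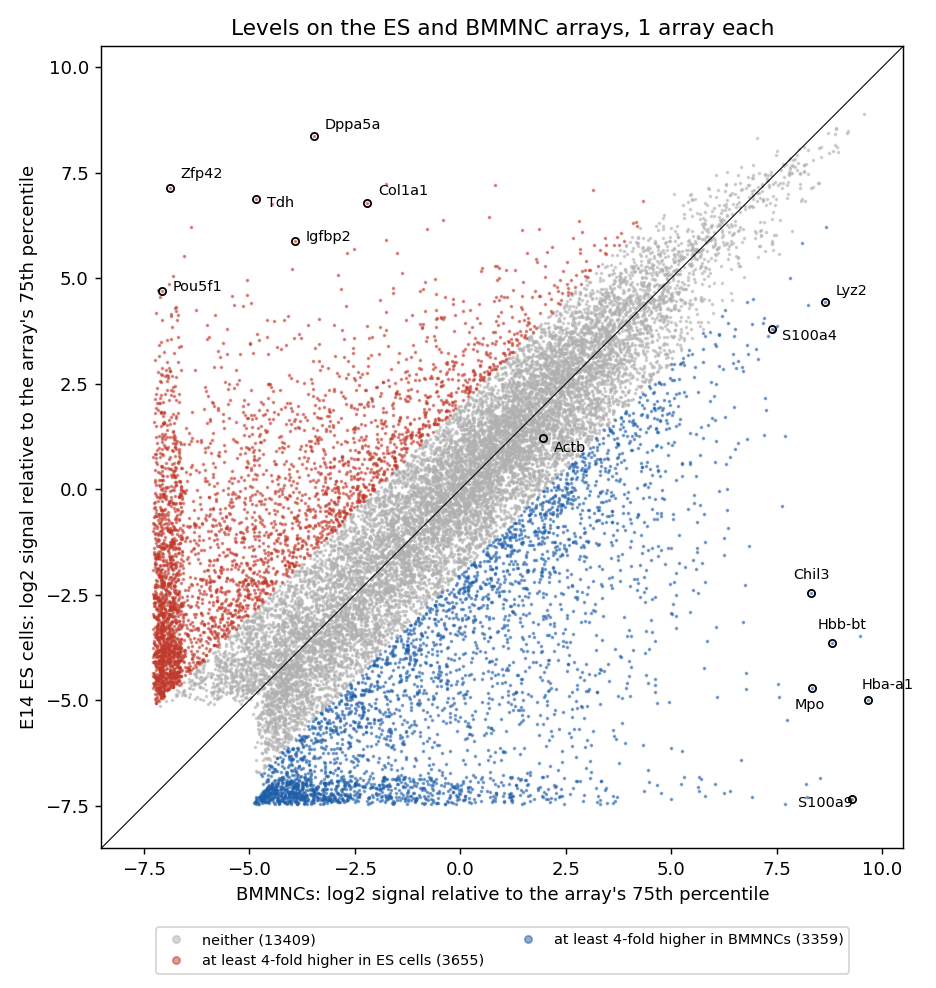
ES level (vertical) against BMMNC level (horizontal) of 20423 genes or transcripts, in log2 signal relative to each array's 75th percentile, 1 array each. Red points (3655) were at least 4-fold higher in ES cells and blue points (3359) in BMMNCs; Dppa5a and Zfp42 lie at the upper left, Mpo and S100a9 at the lower right, and the bands at the left and lower edges are probes not well above background on the dimmer array.

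The labels were checked against marker genes. All 6 ES cell markers were well above background on the ES array, and Pou5f1, Sox2, Zfp42 and Esrrb were not well above background in BMMNCs. Granulocyte markers stood at 2.92 to 8.52 in BMMNCs, where Mpo, the main peroxidase of neutrophil granules, was alone among the 5 in being just above background on the ES array (-4.70). Erythroid, B, T and NK cell, monocyte and megakaryocyte markers were well above background in BMMNCs without exception. Markers of other cells were also read. All 9 fibroblast markers were well above background on the ES array, among them Col1a1 at 6.79, Col3a1 at 5.04 and Postn at 3.24, while 6 of the 9 were not above background in BMMNCs. Endothelial Pecam1 was at -0.35 on the ES array and -0.80 in BMMNCs, and Kdr at -3.52 and -3.76. Cdh5 was above background in BMMNCs alone (-2.38) and Tek on the ES array alone (-2.85). Of the marrow stroma markers, Lepr and Bglap were not above background on either array. Adipoq was above background in BMMNCs alone (-4.40), and Cxcl12 was 3.40-fold higher on the ES array.

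**Figure D3:**
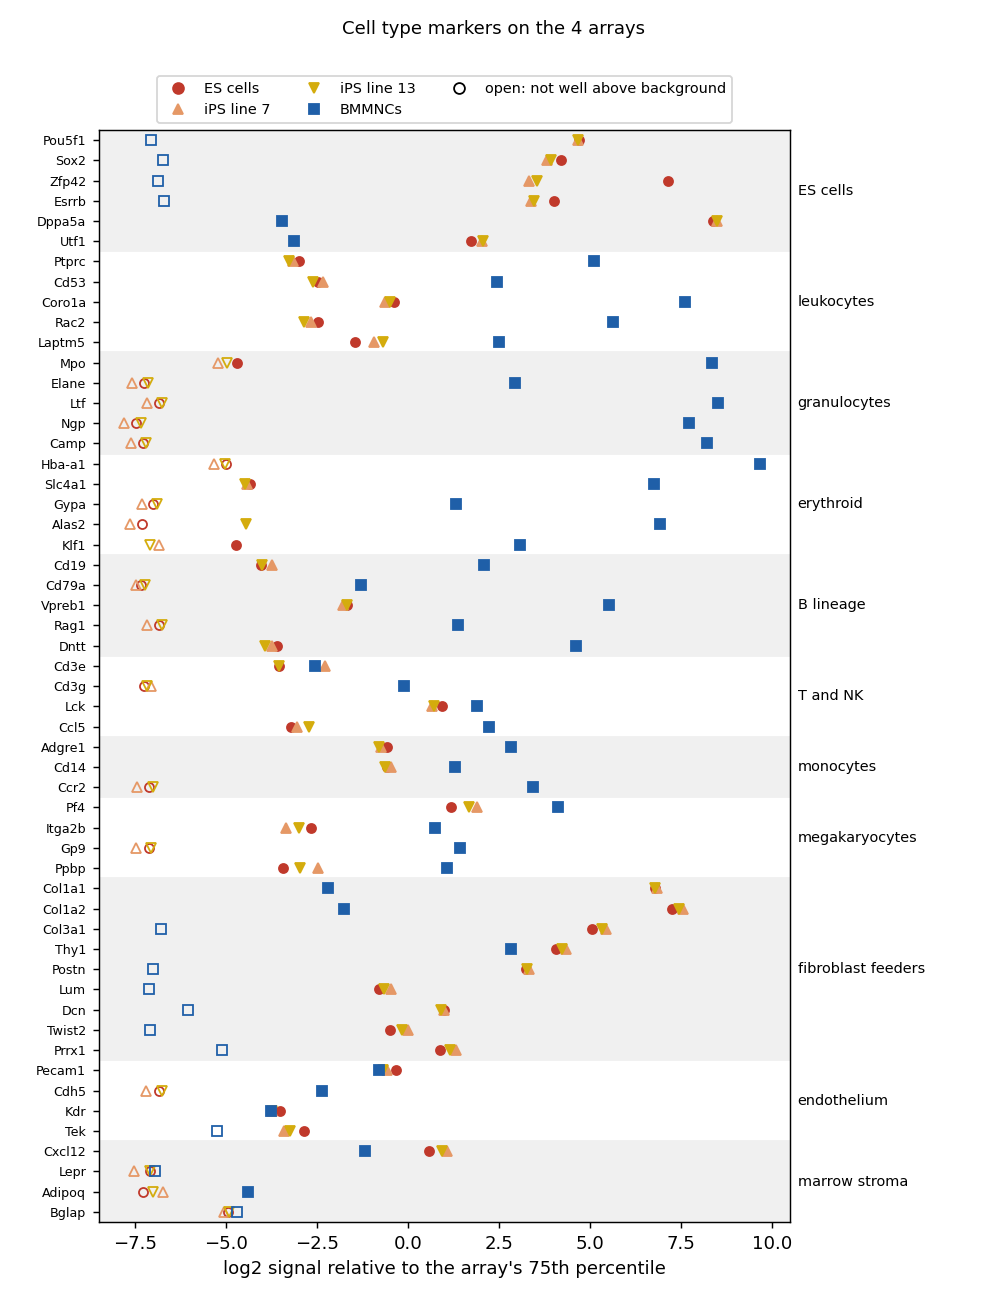
Marker genes of 11 cell types (rows) on the 4 arrays, as log2 signal relative to the array's 75th percentile; filled symbols were well above background and open symbols were not. BMMNC squares lie far right of the others for granulocyte, erythroid and B lineage genes and far left for ES cell and fibroblast genes other than Thy1.

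The lists below name 1155 genes, of which 1026 were tested, 45 were on the array but above background on neither, and 84 had no probe matched by name. Nanog, Fgf4, Nodal and Csf1r are among the last and were not analysed here.

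Pluripotency factors were among the widest gaps on the ES side. Zfp42, a zinc finger protein of undifferentiated cells, stood at 7.12 in ES cells and was not well above background in BMMNCs, a difference of at least 4265-fold. Pou5f1 was at 4.69 and at least 790.1-fold higher, and Sox2 at 4.21 and at least 566-fold higher. Of 21 pluripotency factors tested, 18 were at least 4-fold higher in ES cells and 0 in BMMNCs. Their median difference was 6.08 (5.84 with dim genes at their bound), against 0.15 over all genes with a symbol. Tbx3, Nr0b1, Esrrb and Nr5a2, further members of the circuit, were at least 606-fold, 524-fold, 488-fold and 315-fold higher. The 3 factors within 4-fold were Krüppel-like or spalt-like zinc finger proteins that blood cells also express: Klf2 (6.64 and 6.75), Klf4 (6.22 and 5.13) and Sall4 (-0.19 and -1.26).

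Among the factors used to reprogram cells, then, Pou5f1 and Sox2 were dim in marrow while Klf4 and Myc were not. Klf4 was 2.13-fold higher in ES cells. Myc, a growth regulator, was at 1.86 in ES cells and 3.07 in BMMNCs, 2.32-fold higher in marrow, although its other probes gave differences of -0.78 and 0.05 and its sign turns on the control-spot scale. Kit, the receptor used to sort blood progenitors and also present on germ cells, was at 1.45 and 1.59.

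Proteins typical of ES cells followed the factors. Dppa5a, which binds RNA in the early embryo, was at 8.36 in ES cells and -3.46 in BMMNCs, 3619.7-fold apart, and its other probe gave 12.67 on the log2 scale. It was the gene with the widest gap in the ES direction among those measured on both arrays. Tdh, threonine dehydrogenase, followed with levels of 6.86 and -4.83 (3313-fold). Of 18 such genes 16 were higher in ES cells and none in BMMNCs, with a median of 6.88 (5.50 with bounds). Fbxo15, an F-box protein and classic reporter of the undifferentiated state, was at least 1404-fold higher, and Tex19.1 at least 892-fold. Lin28a, which blocks let-7 microRNA maturation, differed by less: 1.36 against -0.35, or 3.27-fold, whereas its paralogue Lin28b was at least 26.7-fold higher.

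The pathways that ES cells read were unevenly raised over marrow. In the Nodal and BMP list 10 of 18 genes were higher in ES cells and none in BMMNCs. The co-receptor Tdgf1 (Cripto) was at least 424-fold higher, the Nodal inhibitor Lefty2 at least 135-fold, and its relative Lefty1, seen on both arrays, 22.3-fold, while the ligand Bmp4 stood at -0.24 against -4.49. Of the receptors, Acvr2b and Bmpr1a were 38.2-fold and 6.18-fold higher in ES cells and Acvr1b differed by -0.41 on the log2 scale. The transducers Smad1, Smad2, Smad3, Smad4 and Smad5 differed by 0.32, -0.26, -0.43, 0.91 and -0.30 on the log2 scale. The FGF list had 10 of 16 higher in ES cells. Fgfr1, a receptor, was at least 45.4-fold higher and Etv4, a transcription factor downstream of it, stood at 1.79 against -3.73. Dusp6, a phosphatase that restrains ERK, was 2.79-fold lower in ES cells than in marrow, a sign that the control-spot scale turns only just.

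Wnt genes were mostly on the ES side. Of 22 tested, 14 were higher in ES cells and 1 in BMMNCs. Tcf7l1, the repressive partner of beta-catenin in ES cells, stood at 3.68 in ES cells and -3.81 in BMMNCs (180.4-fold). Lef1, the partner known from lymphoid precursors, stood at -2.59 and 0.12, 6.56-fold higher in marrow, while Tcf7l2 was near equal at -0.83 and -0.96. Tcf7, the partner known from T cells, was 2.06-fold higher in ES cells, so the partners of lymphoid cells did not lie on one side. Receptors of the Frizzled family were on the ES side in 7 of 9 cases, and the secreted inhibitor Sfrp1 was at least 137-fold higher there.

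The LIF and JAK-STAT list was split, with 3 higher in ES cells and 3 in BMMNCs of 15. Its feedback inhibitors Socs2 and Socs3 were 26.4-fold and 11.8-fold higher in ES cells, and so was the kinase Pim3 (11.3-fold). The signal transducers that blood cytokines use lay the other way: Stat5a stood at -1.14 in ES cells and 2.83 in BMMNCs, and Stat5b at -0.17 and 3.58. The receptor chains Lifr and Il6st differed by 0.98 and 1.14 on the log2 scale, within 4-fold, and one other probe of Lifr gave -0.21.

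Eph receptors and their ephrin ligands, which sort cells by contact, were on the ES side in 14 of 16 cases with a median of 3.95 (3.36 with bounds). Genes of the 2-cell-like state, a transient state of a few cells in ES cultures, were higher in ES cells in 6 of 6 cases. Zscan4c stood at 4.58 in ES cells and was at least 729-fold higher. Tcstv3 was at 2.60 and -1.72. The iPS arrays read -1.38 and -0.59 for Zscan4c, so on that gene the pluripotent cultures of the series differed.

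Epithelial contact genes separated the samples nearly as widely. ES cells grow as compact colonies joined by E-cadherin, whereas marrow cells are single. Cdh1, the E-cadherin gene, stood at 4.14 in ES cells and -0.13 in BMMNCs (19.3-fold), and Epcam was at least 109.8-fold higher. Of 29 epithelial genes 24 were higher in ES cells and 0 in BMMNCs, with a median of 4.27 (3.97 with bounds). Pkp2, a desmosome plaque protein, was at least 360.3-fold higher and the keratin gene Krt8 61.4-fold. Gap junction and desmosome genes were on the same side in 8 of 9 cases, led by Gjc1 (at least 359-fold) and Gja1 (16.2-fold). The claudins, seal proteins of tight junctions, were divided. Of 13 tested, 5 were higher in ES cells, such as Cldn7 (40.3-fold) and Cldn6 (at least 19.9-fold), and 4 in BMMNCs, led by Cldn13, at 2.46 in BMMNCs and at least 193-fold higher there.

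Matrix genes formed the other large block on the ES side. The collagen gene Col1a1 stood at 6.79 in ES cells and -2.21 in BMMNCs, 509.6-fold apart, and Col1a2 at 7.24 and -1.75 (508-fold). Both lie among the 15 widest differences in the ES direction of genes with a symbol measured on both arrays. Igfbp2, a binding protein of insulin-like growth factors (890.1-fold), and Col18a1, a basement membrane collagen (582-fold), preceded them. Genes of collagen making were also among the 15: Serpinh1, the collagen chaperone (203-fold), P4ha2, a prolyl hydroxylase (338-fold), Fkbp10, a prolyl isomerase (382-fold), and Pcolce, which aids the trimming of procollagen (310.1-fold). Collagen chains were higher in ES cells in 23 of 30 cases and in BMMNCs in 0. The laminin and basement membrane list was on the same side in 11 of 13, with Lamc1 at 4.21 against -0.83 and Nid2 at least 360.4-fold higher.

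The fibroblast list lay the same way. Of 30 fibroblast genes 26 were higher on the ES array, with a median of 6.69 (6.12 with bounds). All 30 were well above background there, against 15 on the BMMNC array, and their summed signal was 905 times the 75th percentile on the ES array and 262 on the BMMNC array, with 1110.0 and 1010.0 on the iPS arrays. Genes that stem cells are not known for were among them: Fbln2 at least 2281-fold, Postn at least 289.7-fold, Lox at least 143-fold, Dcn at least 60.2-fold and the fibroblast regulators Twist2 and Prrx1 at least 21.8-fold and 55.5-fold higher. The part of remaining feeder cells in the matrix, mesenchymal and Hox results was not tested. Vim, an intermediate filament gene, was high in both, at 6.62 and 6.20. S100a4, often used as a fibroblast marker, went against the list, with 3.79 in ES cells and 7.38 in BMMNCs, a difference of -3.59.

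Mesenchymal regulators differed between families. The Snail and Twist factors were on the ES side, with Snai2 at least 126-fold, Snai1 11.6-fold and Twist1 at least 18.6-fold higher. Of the related Zeb factors, Zeb2 stood at -0.91 in ES cells and 1.99 in BMMNCs, 7.47-fold higher in marrow, and Zeb1 was near equal (0.37 and 0.14). The TGF-beta ligands divided too: Tgfb3, seen on both arrays, was 101-fold and Tgfb2 at least 19.5-fold higher in ES cells, and Tgfb1, the form of blood cells, 4.92-fold higher in marrow. In all 9 of 12 were higher in ES cells and 2 in BMMNCs.

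Hox genes, which set position along the body axis, were on the ES side in 15 of 25 tested and on the BMMNC side in 0. Hoxb9 was at -0.28 and at least 25.2-fold higher on the ES array, Hoxc9 at least 14.9-fold, and Hoxb2 stood at -0.83 against -4.16. The values on the dim side matter here: the median of the family was 2.91, and 0.67 with dim genes at their bound. The members known from blood stem cells lay differently. Hoxa9 was near equal at -3.19 and -2.94, and Hoxb4 and Hoxa7 differed by -1.33 and -1.49 on the log2 scale.

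Genes that mark later lineages were mostly low on the ES array. Of 11 primitive endoderm genes 5 were higher in ES cells and 1 in BMMNCs: Gata6 stood at -1.51 and was at least 10.8-fold higher, while Afp, the fetal serum protein, was at -1.80 in BMMNCs and at least 10.1-fold higher there. The neuroectoderm list had 8 of 13 on the ES side, with Nes at 2.62 against -3.53 and Zic2 at least 28.0-fold higher. In the trophoblast list 3 of 8 were on the ES side, Tfap2c by at least 154-fold and Cdx2 by at least 2.72-fold. Primitive streak genes gave 3 against 2 of 7, and Tbx6, a mesoderm factor, was 5.25-fold higher in BMMNCs.

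Germ cell genes were higher in ES cells almost throughout, 21 of 24, with a median of 5.43 (3.75 with bounds). Rhox5, an X-linked homeobox gene, stood at 4.56 and was at least 720.5-fold higher. Mael, a factor of transposon silencing, was at 0.96 and at least 59.3-fold higher, Sycp3, a protein of the meiotic chromosome axis, at 0.76 and at least 51.9-fold, and Dazl, an RNA-binding protein of germ cells, at least 20.4-fold. Ddx4 and Stra8 were measured on both arrays, 13.7-fold and 86.0-fold apart. Sycp2 went the other way on the chosen probe, at least 3.26-fold higher in BMMNCs, but its other probe gave 2.93, so its direction is not settled. Kit, also in this list, was near equal as given above.

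Many germ cell promoters share a short palindrome, shown here because 9 members of the list carry it. In all 7 motifs were searched on both strands in the promoters of 10 lists: the E-box CACGTG, the GATA motif AGATAA, the PU.1-type site GAGGAAGT, the octamer ATGCAAAT, the Sp1-type site GGGCGG, the TATA box TATAAA and the CACC box CCACACCC. None contains another. The letters CACGTG, an E-box, occur in the 250 bases before the start of 9 of 20 list members with a promoter in the RefSeq table (45.0%), against 8.35% of 10137 tested genes and 6.05% of all 27025 promoters of that length. The 9 are Ddx4, Sycp1, Sycp3, Mael, Taf7l, Tdrd1, Hormad1, Mov10l1 and Stk31, and all were on the ES side, from at least 2.65-fold (Sycp1) to at least 59.3-fold (Mael). The letters do not mark a side: they are also in 3 of 12 haem promoters, of Alad, Uros and Urod, all higher in BMMNCs, and in 3 of 17 pluripotency promoters (17.6%). Over all genes past 4-fold they were in 7.86% of promoters on the ES side and 6.21% on the BMMNC side. Windows of 3 of them, from RefSeq on build GRCm38.p6, are given 5′ to 3′ on the gene's strand with the E-box in capitals.
Mael (chr1:166238745-166238994, minus strand): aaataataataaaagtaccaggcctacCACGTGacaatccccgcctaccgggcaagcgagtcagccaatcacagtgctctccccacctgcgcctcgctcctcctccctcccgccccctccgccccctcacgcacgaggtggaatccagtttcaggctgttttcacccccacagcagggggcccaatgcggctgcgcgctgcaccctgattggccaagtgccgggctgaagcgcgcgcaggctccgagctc
Sycp3 (chr10:88459337-88459586, plus strand): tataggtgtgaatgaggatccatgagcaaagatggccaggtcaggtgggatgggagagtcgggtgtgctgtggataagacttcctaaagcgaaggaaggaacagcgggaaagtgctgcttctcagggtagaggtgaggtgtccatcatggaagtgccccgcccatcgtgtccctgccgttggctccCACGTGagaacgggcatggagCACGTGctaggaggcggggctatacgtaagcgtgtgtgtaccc
Taf7l (chrX:134476491-134476740, minus strand): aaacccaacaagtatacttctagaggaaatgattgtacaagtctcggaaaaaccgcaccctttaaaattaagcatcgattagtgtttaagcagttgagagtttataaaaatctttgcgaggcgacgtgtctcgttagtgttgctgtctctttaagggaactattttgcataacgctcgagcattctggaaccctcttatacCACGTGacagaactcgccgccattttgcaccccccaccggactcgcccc
The palindrome begins 223 bases before the start in Mael, 64 and 43 in Sycp3 and 49 in Taf7l. A match of letters is a description and shows no binding.

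Imprinted genes, expressed from the maternal or the paternal copy alone, were on the ES side in 16 of 22 cases and on the BMMNC side in 1. Igf2, a fetal growth factor, stood at 3.38 and was at least 317-fold higher, Mest at 2.69 against -4.05 and Phlda2 62.3-fold higher. The maternally expressed receptor Igf2r, which clears Igf2, was near equal (2.54 and 2.58). Fibroblasts also express several of these genes, and the fibroblast list lay the same way as given above. Its part was not tested.

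On the marrow side, neutrophil granule genes stood furthest apart. S100a9, a calcium-binding protein that makes up much of the neutrophil's cytosol, was at 9.29 in BMMNCs and not well above background in ES cells, at least 22015-fold apart. Ltf, lactoferrin, Camp, a microbe-killing peptide, and Ngp were also dim in ES cells and at least 12908-fold, 10375-fold and 7337-fold higher. Mpo gave the widest gap measured on both arrays, -4.70 in ES cells against 8.34 in BMMNCs, or 8428-fold. Of 28 genes in the list 28 were at least 4-fold higher in BMMNCs, with a median of -9.32 (-8.51 with bounds). Hp, the haemoglobin scavenger haptoglobin, Chil3, a chitinase-like protein, and Slpi, a protease inhibitor, were 4448-fold, 1759-fold and 926-fold higher. Genes of each stage were present: primary granules (Mpo, Elane, Prtn3, Ctsg), secondary granules (Ltf, Camp and Ngp) and late products such as Mmp9 (80.4-fold) and the receptor Cxcr2 (at least 143-fold). Lyz2, lysozyme of myeloid cells, was at 8.63 in BMMNCs and also bright on the ES array at 4.43, with the array of iPS line 7 at 4.48.

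None of the 25 neutrophil promoters in the table was rich in CpG by the measure used below. The letters GAGGAAGT, a PU.1-type site, or their reverse complement, were found in 5 of the 25 (20.0%): Mpo, Elane, Prtn3, Mmp8 and S100a8. The share was 2.31% of tested genes and 2.44% of all promoters. It was 4.71% of genes higher in BMMNCs and 7.29% of those at least 64-fold higher there. The letters were also in 2 of 19 B lineage promoters. Elane and Prtn3 encode neighbouring serine proteases of the primary granule. Elane stood at 2.92 in BMMNCs and was at least 267-fold higher, Prtn3 at 2.70 and at least 229-fold. Their windows are shown with the motif in capitals because both genes carry it, 85 and 95 bases before the start.
Elane (chr10:79886062-79886311, plus strand): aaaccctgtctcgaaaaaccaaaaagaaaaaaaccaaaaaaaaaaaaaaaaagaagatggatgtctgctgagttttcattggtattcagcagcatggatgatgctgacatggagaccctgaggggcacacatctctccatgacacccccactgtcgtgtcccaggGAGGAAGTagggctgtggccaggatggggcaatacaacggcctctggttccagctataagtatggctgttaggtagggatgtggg
Prtn3 (chr10:79879417-79879666, plus strand): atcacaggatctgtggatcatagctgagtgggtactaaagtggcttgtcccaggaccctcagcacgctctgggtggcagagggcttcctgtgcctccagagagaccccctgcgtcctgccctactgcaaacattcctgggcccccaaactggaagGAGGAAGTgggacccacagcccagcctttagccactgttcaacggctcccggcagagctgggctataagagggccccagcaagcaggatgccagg

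Red cell genes came next. Hba-a1, an alpha globin gene, stood at 9.67 in BMMNCs, at least 26012-fold above ES cells, and Hbb-bt, a beta globin gene, at 8.80 against -3.65 (5580.3-fold). Hbb genes are near-identical copies, so their probes may read each other. Slc4a1, the anion exchanger, was 2205-fold higher and Aqp1, the water channel of the red cell membrane, 645-fold. Of 26 genes 25 were higher in BMMNCs, with a median of -7.24 (-6.30 with bounds), and the exception was Xpo7, an exportin that red cell precursors use, at 1.46 and 2.91.

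The haem-making enzymes named here lay on the marrow side. Alas2, the red cell form of the first enzyme, was at 6.91 in BMMNCs and at least 4221-fold higher, and its housekeeping form Alas1 was 7.33-fold higher. The later enzymes Alad, Urod, Cpox, Ppox and Fech were 6.62-fold, 6.03-fold, 7.85-fold, 14.2-fold and 14.5-fold higher in BMMNCs. Uros, which acts just before Urod, stood at -2.41 and 1.05. Slc25a37, which brings iron into mitochondria, stood at -0.49 in ES cells and 6.31 in BMMNCs (112-fold). Hmox1, which breaks haem down, went the opposite way, 4.08-fold higher in ES cells. In the list 11 of 17 were higher in BMMNCs and 1 in ES cells.

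Several of these promoters hold a GATA motif, AGATAA on either strand. It was found in 6 of 18 red cell promoters (33.3%): Rhd, Kel, Epb42, Trim10, Epor and Icam4, against 6.45% of tested genes and 10.3% of all promoters. Among genes higher in BMMNCs 10.1% had the motif, and 15.3% of those at least 64-fold higher there. In the haem list Alas2 alone of 12 had it. The letters are also in 6 of the 25 neutrophil promoters (24.0%), among them S100a9 and Ltf, so the motif is not particular to red cell genes. Alas2, on the X chromosome, and Epb42, a protein of the membrane skeleton at 1.88 in BMMNCs and -4.16 in ES cells, are shown with the motif, here on the opposite strand, in capitals.
Alas2 (chrX:150547167-150547416, plus strand): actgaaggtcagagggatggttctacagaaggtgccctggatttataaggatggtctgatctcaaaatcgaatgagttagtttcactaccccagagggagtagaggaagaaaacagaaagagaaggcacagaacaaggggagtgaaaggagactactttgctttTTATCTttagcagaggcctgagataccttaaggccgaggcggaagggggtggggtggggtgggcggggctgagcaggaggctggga
Epb42 (chr2:121036878-121037127, minus strand): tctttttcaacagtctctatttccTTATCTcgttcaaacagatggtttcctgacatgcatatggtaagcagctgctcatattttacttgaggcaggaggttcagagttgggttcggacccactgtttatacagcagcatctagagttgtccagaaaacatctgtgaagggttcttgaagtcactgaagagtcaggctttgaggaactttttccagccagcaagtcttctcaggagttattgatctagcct

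The transcription factors of blood were lower in ES cells in 26 of 32 cases by at least 4-fold and higher in 0, with a median of -4.78 (-3.85 with bounds). Nfe2, an activator of globin and platelet genes, stood at 4.99 in BMMNCs and was at least 1119-fold higher. Lyl1, a helix-loop-helix factor of blood stem cells, stood at -3.59 against 5.84 (689-fold) and Irf8, a factor of monocytes and B cells, at -1.89 against 5.60 (179-fold). Spi1 (PU.1) was at -1.39 in BMMNCs and at least 13.4-fold higher there, Gata1 was 115-fold higher, and Pax5 at least 9.98-fold. Gfi1 and Gfi1b, repressors of the granulocyte and red cell paths, were at least 208-fold and 437-fold higher. Factors that also work outside blood differed little: Tcf12 by -0.67, Tcf3 by -1.01 and Runx1 by -1.36 on the log2 scale, values that the control-spot scale would make positive.

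Genes shared by leukocytes were higher in BMMNCs in 31 of 33 cases, with a median of -6.43 (-6.43 with bounds). The surface phosphatase Ptprc (CD45) stood at -3.00 in ES cells and 5.11 in BMMNCs (277-fold), and Coro1a, a regulator of actin, at -0.40 and 7.61. The list was not silent on the ES array, where 27 of 33 genes were well above background with a summed signal of 31.3, against 929 in BMMNCs. Receptors of progenitors and cytokines lay the same way in 14 of 19 cases. Csf3r, the receptor of granulocyte growth factor, was at least 325-fold higher and Cd34 17.8-fold. Procr, the protein C receptor and a marker of blood stem cells, went against them and was 13.5-fold higher in ES cells, at 1.22. Thpo was near equal on its chosen probe while the other gave 4.54.

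B lineage genes were higher in BMMNCs in 25 of 25 cases, with a median of -6.48 (-5.89 with bounds). Precursor and plasma cell genes were both present. Vpreb1, part of the surrogate light chain of the pre-B receptor, stood at 5.52 in BMMNCs against -1.68 (147-fold), Dntt, which adds bases at receptor joins, at 4.60 against -3.60, and Rag1, the recombinase, was at least 91.2-fold higher. Jchain, the joining chain of secreted antibodies, was at 5.65 and at least 1768-fold higher, and Ms4a1 (CD20) at least 347-fold.

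T and NK cell genes were less uniform, with 23 of 30 higher in BMMNCs and 0 in ES cells. Nkg7, a protein of cytotoxic granules, stood at 3.91 in BMMNCs and was at least 529-fold higher, and Cd3d, a chain of the T cell receptor complex, at least 97.7-fold. Cd3e, another chain of that complex, was at -3.56 in ES cells and -2.55 in BMMNCs. The kinase Lck was near equal too (0.94 and 1.90), and Tcf7, a Wnt-responsive factor of T cells, was 2.06-fold higher in ES cells. Cd3e and Lck therefore separate these samples poorly, and both would turn positive on the control-spot scale.

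Monocyte and macrophage genes differed by very unequal sizes. Of 21 tested, 13 were at least 4-fold higher in BMMNCs and 0 in ES cells, with a median of -2.42 (-2.42 with bounds). Among the wide gaps were genes of circulating monocytes: Ccr2, the receptor that draws them from marrow, was at 3.44 in BMMNCs and at least 381-fold higher, F13a1 at 5.70 and at least 1829-fold, Ly6c1 at least 403-fold and Cx3cr1 at least 35.7-fold. Among the narrow ones were genes known from tissue macrophages. C1qa, C1qb and C1qc, the chains of a complement protein, differed by -0.33, -1.03 and -1.18 on the log2 scale, values that the control-spot scale would make positive. The scavenger receptors Msr1 and Marco were at -0.90 and -1.38 against -0.50 and -2.42, and Ms4a7 at -0.82 against -1.67. These 6 were picked out after their values were seen, and the sizes do not divide by cell type. Adgre1 (F4/80), a marker of tissue macrophages, was 10.8-fold higher in BMMNCs, and Cd14, a monocyte marker, stood within 4-fold at -0.57 in ES cells and 1.30 in BMMNCs. On the iPS arrays C1qa read -0.58 and -0.77, and Marco -1.16 and -1.39.

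**Figure D4:**
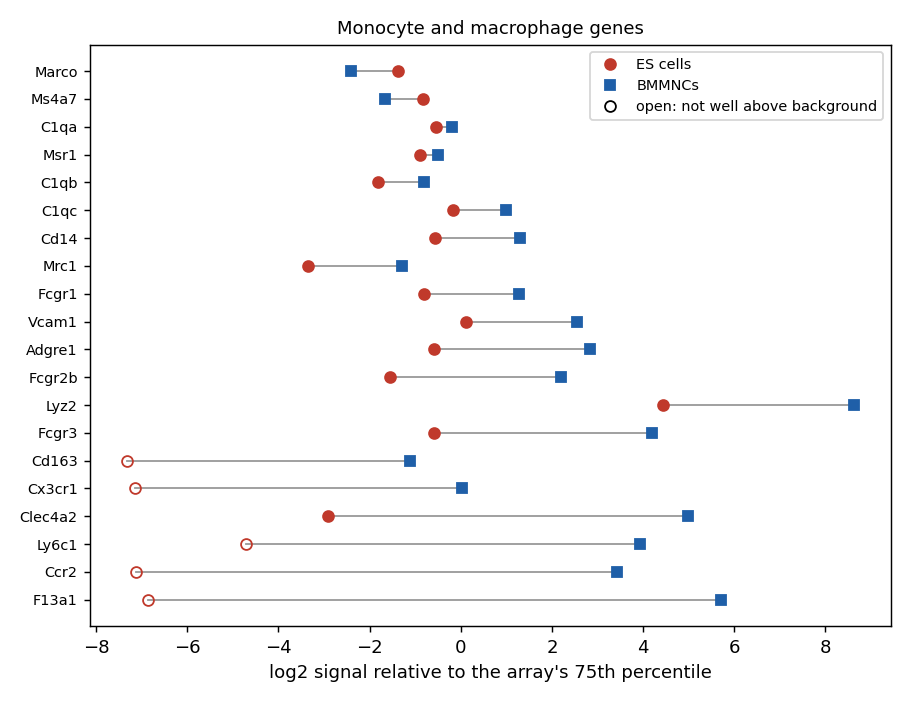
Levels of 20 of the tested monocyte and macrophage genes on the ES array (circles) and the BMMNC array (squares), as log2 signal relative to the array's 75th percentile; open symbols were not well above background. F13a1, Ccr2 and Ly6c1 at the foot are far apart, and Marco, Ms4a7 and C1qa at the top lie close together.

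Rarer granulocytes left a clear trace. Of 18 basophil, mast cell and eosinophil genes 15 were higher in BMMNCs and 1 in ES cells. The BMMNC side was led by Prg2, the major basic protein of eosinophils (at 3.63, at least 435-fold). Hdc, which makes histamine (149-fold), and the mast cell protease Cpa3 (at least 98.0-fold) lay there too. The 1 higher in ES cells was Mcpt1, another mast cell protease, with differences from 0.22 to 4.57 over the alternatives. Prss34, a basophil protease, stood at -4.24 and 5.76 (1027-fold). Megakaryocyte and platelet genes were higher in BMMNCs in 14 of 19 cases and in ES cells in 2. Gp9 and Gp1ba, of the von Willebrand factor receptor, were at least 94.7-fold and 16.7-fold higher in BMMNCs. Pf4, a platelet chemokine, was at 4.11 in BMMNCs but also at 1.18 on the ES array. The exceptions were Thbs1, thrombospondin, and F2r, the thrombin receptor, 21.0-fold and 8.84-fold higher in ES cells. Fibroblasts express both, and the part of feeder cells was not tested.

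Antigen presentation followed class. The class II genes H2-Aa, H2-Ab1, H2-Eb1 and Cd74 were at 2.07, 5.06, 3.34 and 4.55 in BMMNCs. H2-Aa was at least 148-fold higher there and the others 153-fold, 196-fold and 245-fold. Class I differed by less: H2-D1 stood at 3.08 in ES cells and 7.06 in BMMNCs (15.8-fold), and its partner chain B2m at 3.71 and 5.36 (3.15-fold). The immunoproteasome subunits Psmb8 and Psmb9 were 28.7-fold and 39.5-fold higher in marrow. Of 37 proteasome genes these 2 were past 4-fold, with 0 in the ES direction and a family median of 0.50. In all 18 of 21 genes of the list were higher in BMMNCs. Alleles of strain differ at these loci, and probe matches to each strain were not examined.

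Sensors of infection were mostly a marrow trait, with 17 of 23 Toll-like receptor and sensor genes higher there. Casp1, which matures interleukin-1, stood at -3.74 and 2.54 (77.7-fold), Tlr1 was at least 24.9-fold higher and the adaptor Myd88 7.95-fold, whereas the RNA sensor Ddx58 (RIG-I) was near equal (-0.75 and -0.50). Aim2, a DNA sensor, went against the list, but its bound is narrow, at least 1.31-fold higher in ES cells. Interferon genes were mixed. Of the receptor chains, Ifngr1, Ifngr2 and Ifnar2 were 19.3-fold, 11.8-fold and 4.22-fold higher in BMMNCs, and Ifnar1 differed by -0.72, a sign that the control-spot scale turns. The widest gaps of the list were those of Ifitm6, at 4.94 in BMMNCs and at least 1009.5-fold higher, and of the antiviral gene Rsad2, at -3.34 against 3.99. The response genes Ifit1, Ifit3, Usp18 and Bst2 differed by 0.54, -0.72, -0.39 and -0.52 on the log2 scale. In total 9 of 29 were higher in BMMNCs and 1, Ifi44, in ES cells (4.61-fold).

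Chemokine receptors were higher in BMMNCs in 12 of 12 cases, with a median of -6.84 (-5.49 with bounds). Cxcr4, which holds blood stem cells in marrow, stood at -2.99 in ES cells and 3.37 in BMMNCs (82.6-fold), and its ligand Cxcl12 was on the opposite side at 0.58 and -1.19. The ligands as a family were mixed, 5 higher in ES cells and 9 in BMMNCs of 21. Cxcl1, Cxcl14 and Ccl7, made by fibroblasts among other cells, were at least 12.1-fold, 25.8-fold and 13.0-fold higher on the ES array. The part of feeder cells was not tested. Ccl3, Ccl4, Ccl5 and Ccl6, made by leukocytes, were 44.8-fold, 48.1-fold, 43.8-fold and 84.0-fold higher in BMMNCs. Lysosomal genes leaned to marrow, 7 of 19, through leukocyte cathepsins such as Ctsg (2913-fold) and Ctss (20.9-fold), while Ctsl was 5.06-fold higher in ES cells and Lamp1, the general lysosome marker, near equal (4.94 and 5.15).

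**Figure D5:**
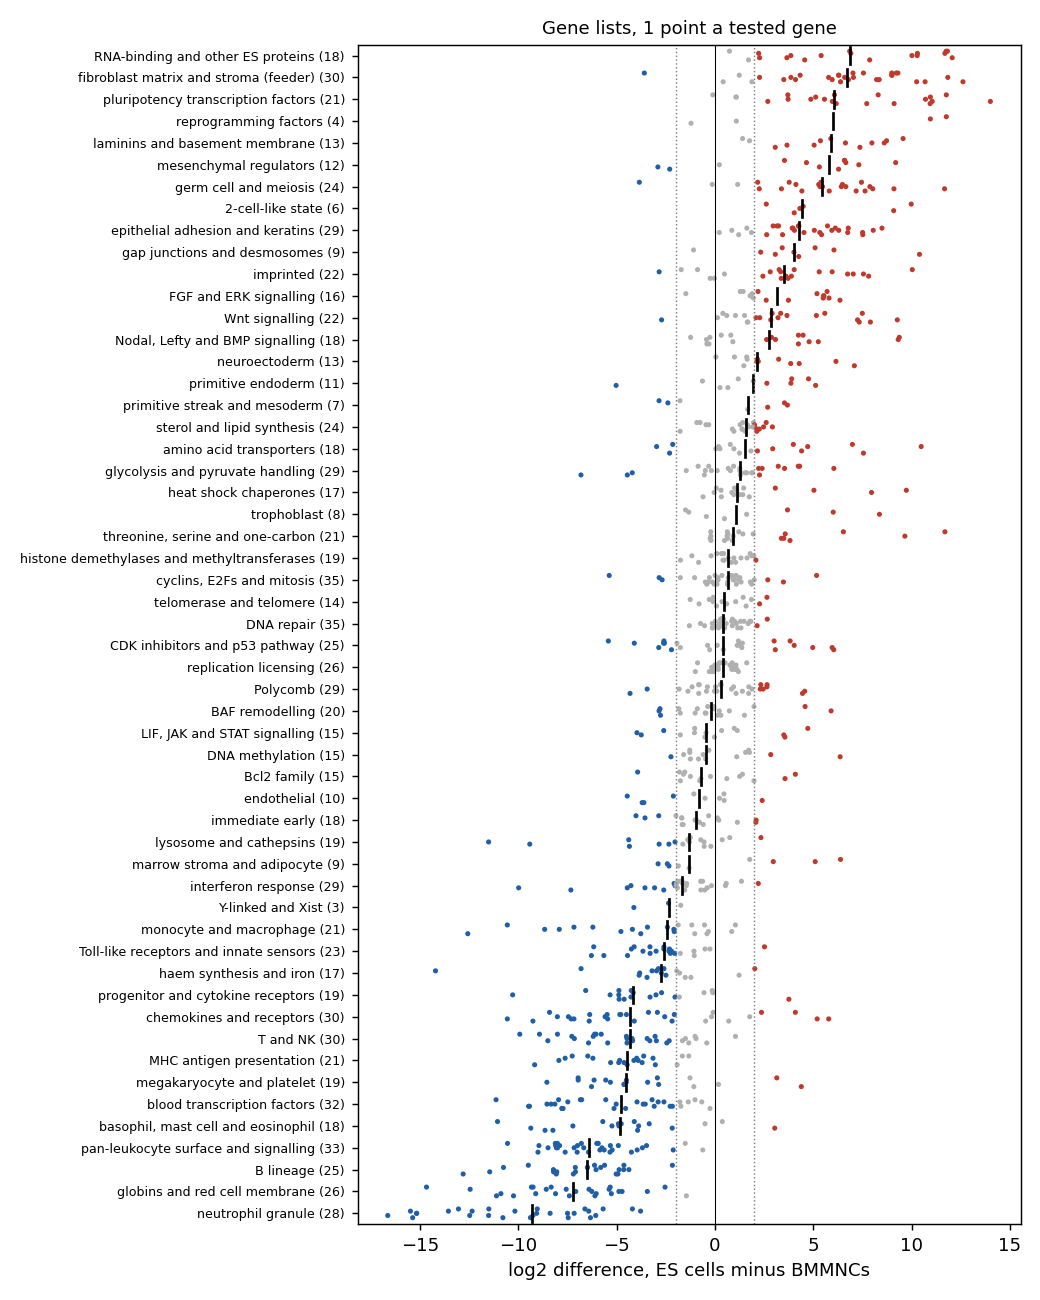
Log2 differences (ES cells minus BMMNCs, horizontal) of every tested gene in 54 gene lists (rows, number tested in brackets), ordered by median (black bars); dotted lines mark 4-fold and coloured points lie past it with the higher side well above background. ES protein and fibroblast lists lie at the top with medians of 6.88 and 6.69, the neutrophil list at the foot with -9.32; on the control-spot scale every point moves right by 1.53, and medians between -1.53 and 0 turn positive.

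Against these gaps, the machinery of growth differed little relative to the bulk of genes. This rests on the percentile scale. The control-spot scale moves every difference up by 1.53. Over the alternatives the list medians reached 1.94 for replication licensing, 1.965 for DNA repair and 2.18 for cyclins, E2Fs and mitosis. Both samples divide, and on the percentile scale genes of replication licensing gave 0 genes past 4-fold in either direction of 26. Their median was 0.41, with Mcm6 at 6.68 and 6.84 and Pcna at 6.09 and 6.38. DNA repair genes were close as well, with 2 of 35 higher in ES cells and 0 in BMMNCs: the Ku subunit Xrcc5 (6.33-fold) and the mismatch repair gene Msh6 (4.42-fold). Of 35 cyclin, E2F and mitosis genes 3 were higher in ES cells and 3 in BMMNCs. E2f2 stood at 0.65 in ES cells and 6.03 in BMMNCs (41.5-fold higher in marrow). E2f5 stood at 0.35 and -3.13 (11.2-fold higher in ES cells), while E2f1, E2f4 and E2f6 differed by -0.41, 0.16 and -0.03. The difference of E2f8 lay on the marrow side, from -3.14 to -1.30 over the alternatives. Cdc25b was 6.4-fold higher in BMMNCs and Ccna1 at least 8.05-fold higher in ES cells. Telomerase (Tert) was at -1.43 in ES cells and -4.08 in BMMNCs, 6.26-fold apart, in a list with 2 of 14 on the ES side.

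Inhibitors of the cell cycle differed in kind. Cdkn1a (p21) stood at 2.32 in ES cells and -1.51 in BMMNCs (14.2-fold), Cdkn1c was 16.3-fold higher in ES cells, and Cdkn2b and Cdkn2a at least 65.8-fold and 15.7-fold. On the marrow side Cdkn2c stood at -1.68 and 3.74 (42.8-fold), Cdkn2d at 0.82 and 4.92, and Cdkn1b (p27) at -4.55 and -1.98. Rb1 and its relative Rbl1, the brakes that CDKs release, were 4.63-fold and 6.04-fold higher in BMMNCs. The list divided evenly, 7 and 7 of 25, and Trp53 itself was near equal at 0.44 and 0.81. Cdkn2a, Cdkn2b and Cdkn1a are also expressed by cultured fibroblasts, and the fibroblast list lay the same way, a part that was not tested. In the Bcl2 family, Bcl2 was 15.2-fold higher in BMMNCs, and Bok and Bnip3 17.0-fold and 11.8-fold higher in ES cells, while Mcl1 was near equal (4.50 and 4.73).

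Housekeeping families lay close to the bulk of genes. Cytosolic ribosomal proteins had a median of -0.21 over 79 genes, a sign that turns on the control-spot scale. The 1 past 4-fold was Rpl39l, a testis-type copy of Rpl39, at 3.05 in ES cells and -2.67 in BMMNCs (52.4-fold). Mitochondrial ribosomal proteins had a median of 0.25, which turns negative when each array is scaled to its median. Complex I subunits had one of -0.24, positive on the control-spot scale, with 0 of 34 past 4-fold in either direction. Other respiratory subunits with tissue-specific forms stood out: Cox7a1, the heart and muscle form, was 16.1-fold higher on the ES array and Cox6a2, the other muscle form, 51.7-fold higher in BMMNCs.

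In chromatin complexes the subunits that vary between cell types differed most. In Polycomb, which holds developmental genes silent, the core members Ezh2, Suz12 and Rbbp4 differed by 0.03, 0.10 and -0.02, though Eed, also of the core, was 4.95-fold higher in ES cells. The subunits Phc1 and Cbx7 stood at 4.39 and 2.73 in ES cells against -0.17 and 0.09 (23.7-fold and 6.25-fold), and Cbx8 differed the other way, by -3.45. In all 7 of 29 were on the ES side and 2 on the BMMNC side. The BAF remodelling complex gave a like picture. Smarca4 (Brg1), its main motor, was near equal at 3.92 and 4.29, and the alternative motor Smarca2 (Brm) stood at -2.40 in ES cells and 0.39 in BMMNCs (6.93-fold). Smarcd3 and Dpf1 were at least 32.0-fold and 24.0-fold higher in ES cells, and Dpf3 and Bcl7a 7.17-fold and 6.81-fold higher in marrow. Among DNA methylation genes the maintenance enzyme Dnmt1 was near equal (3.11 and 3.41), and the germline cofactor Dnmt3l and the de novo enzyme Dnmt3b were 82.5-fold and 7.14-fold higher in ES cells.

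Metabolic genes differed through particular enzymes and isoforms. Around threonine and glycine, from which mouse ES cells draw one-carbon units, Tdh, Gcat, Gldc and Gcsh act in sequence or together: after Tdh, given above, Gcat stood at 3.85 and 0.28 (11.9-fold), Gcsh at 1.64 and -1.87, and Gldc was at least 201-fold higher. Serine synthesis was closer, with Phgdh at 5.13 and 4.50, and 7 of 21 in the list were higher in ES cells. In glycolysis 8 of 29 genes were higher in ES cells and 3 in BMMNCs. The glucose carrier Slc2a1 was 19.8-fold, Aldoc 18.8-fold and Ldhb 11.6-fold higher in ES cells. Hk3, the hexokinase of leukocytes, stood at -2.55 and 4.27 (112-fold higher in marrow), Pklr, the red cell and liver pyruvate kinase, was at least 13.1-fold higher, and Hk1 and Hk2 differed by -0.49 and 1.32.

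Carriers and lipid synthesis leaned to ES cells. Slc7a3, a carrier of arginine and lysine, stood at 4.24 and was at least 577-fold higher, and Slc6a8, the creatine carrier, stood at 2.48 against -4.51. Slc6a9, the glycine carrier, was 7.81-fold higher in BMMNCs, in a list of 8 against 3 of 18. Sterol and fatty acid genes lay on that side, with 8 of 24 higher in ES cells and 0 in BMMNCs. Lss and Cyp51, enzymes of cholesterol synthesis, were 7.58-fold and 4.77-fold higher.

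Genes of the rapid stress response showed no clear lean by count. Of 18 immediate early genes 3 were higher in BMMNCs (16.7%) and 2 in ES cells (11.1%). The shares over all genes with a symbol were 14% and 18.8%. The list median was -0.98, a sign that the control-spot scale turns. The 2 on the ES side were Egr2 (4.2-fold) and Fosl1 (4.3-fold). Fos stood at 0.49 in ES cells and 4.50 in BMMNCs (16.2-fold), Zfp36 at 0.87 and 4.43, and Egr1 at 3.12 and 4.13. Of 17 heat shock chaperone genes 4 were higher in ES cells (23.5%) and 0 in BMMNCs. The small heat shock proteins were on the ES side, Hspb1 by at least 629-fold and Cryab by 32.7-fold. So was Hspa1a, not a small one, by 8.41-fold. The constitutive chaperones Hspa8 and Hsp90ab1 differed by 0.31 and 0.96.

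Promoter type differed between genes past 4-fold and the rest. A window of 250 bases before the start was called CpG-rich when its observed over expected CpG was at least 0.6, and 10137 of 12698 tested genes with a symbol had a window. The share was 61.7% over all tested genes and 70.2% of the 6941 genes past 4-fold in neither direction. It was 49.6% of 1794 genes higher in ES cells and 34.9% of 1402 genes higher in BMMNCs. At 64-fold or more it was 41.0% of 295 genes on the ES side and 9.38% of 288 on the BMMNC side. The lists varied on either side. On the ES side 70.0% of 20 germ cell genes were CpG-rich, 52.9% of 17 pluripotency factors, 40.0% of 10 ES proteins and 33.3% of 18 fibroblast genes. On the marrow side 66.7% of 12 haem genes were, 20.0% of 20 T and NK genes, 16.7% of 18 red cell genes, 15.8% of 19 B lineage genes and 0 of 25 neutrophil genes, and among licensing genes 77.3% of 22. The shares of the ES-side lists, 33.3% to 70.0%, thus lay above those of the marrow-side lists other than haem, 0 to 20.0%. The haem list, at 66.7%, was the exception. Genes of a list share function and were picked with the expression results known, so these shares describe the lists alone.

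By chromosome, genes with a symbol above background on both arrays had median differences between -0.19 (chromosome 6) and 0.12 (chromosome 16) except on chromosome 8 and the Y. On chromosome 8 the median of 540 genes was 0.38, with 74 genes at least 4-fold higher in ES cells and 46 in BMMNCs. Copy number was not measured. The Y-linked genes Eif2s3y and Ddx3y stood at 0.27 and -1.95 on the ES array and 2.01 and 0.41 on the BMMNC array, and Kdm5d was at least 10.6-fold higher in BMMNCs. All were thus read from both samples or from BMMNCs, and the share of male animals in the marrow sample was not stated. Xist and the Y-linked Uty and Sry were on the array but not well above background in either sample. Thumpd1, a protein with an RNA-binding domain, was low in ES cells alone, at -2.88 against 2.66 in BMMNCs and 2.88 and 2.89 in lines 7 and 13. Dok2, an adaptor of leukocyte kinases, gave the same order, with -0.08 in ES cells, 3.45 in BMMNCs and 3.49 and 3.54 in the lines.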

How the data were processed

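Total RNA of 4 samples was amplified, labelled with Cy3 and read on 1-colour Agilent arrays, all on 1 slide and with 1 array a sample; 2 arrays enter the comparison. The deposited intensity values are scanner output of Feature Extraction 9.5 (9.5.1.1), per the file headers and the submitters' processing notes; the processed signal is background-corrected there. A deposited value table holds the same signals divided by 1 factor per array, which is not stated.

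Control and outlier spots were left out, spots of a probe averaged as log2, and the array's 75th percentile subtracted (Python 3.11.15, pandas 2.3.3). The scanner's own call per spot decided what was well above background, at a share of at least 0.5 of a probe's spots. For each gene the probe with the highest mean signal over the 4 arrays was used. Symbols, chromosomes and promoter sequences come from RefSeq (GRCm38.p6), which named 22948 of 41174 probes; the array design follows an older build, so names and chromosomes alone were taken for the genes. Probes without a symbol stand as transcripts.

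The 54 gene lists and 30 families were chosen with earlier results of these data known. Genes were named by a rule: the first 3 members on the array of each list, its widest differences, its members at least 4-fold against the list, and over all genes the 15 widest differences and 10 widest bounds in each direction, 335 in all. Other genes complete a role or a count and were named after their values were seen. A few genes counted in the lists are not reported here by name. The scripts were tested on simulated data. Alternatives, 9 planned and 3 added after the data were seen, include normexp (limma 3.58.1, R 4.3.3, offset 50), which used the median signal because the files hold no mean signal.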

Additional observations from a re-analysis of the deposited data

How the results depend on the processing

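With 1 array a group, no replicate could be left out and no result carries a test. No paired analysis was possible because each group is 1 array. The 3655 genes higher in ES cells and 3359 in BMMNCs became 1739 and 2110 with normexp background correction, 1344 and 1653 among genes above background on both arrays, 6047 and 5662 at 2-fold, and 8183 and 1611 on the control-spot scale. Under the other 8 alternatives the counts lay within 1.5 times: 3141 and 3886 with median scaling (44.7% of calls in the ES direction), and 2721 and 2669 with dim signals set at the floor. Of 54 list medians, 4 turned among genes above background on both arrays: the reprogramming factors from 6.02 to -0.063, where the 2 remaining are Klf4 and Myc, primitive streak and mesoderm from 1.67 to -1.78 (3 genes), trophoblast from 1.05 to -0.88 (4 genes) and endothelial from -0.79 to 0.23. Among the 335 named genes, of those past 4-fold Cxcl5 turned, from 2.37 to -0.081 with normexp. On the control-spot scale 8 list medians between -1.53 and 0 turn positive; BAF remodelling, for one, ranged from -0.52 to 1.32 over the alternatives and DNA methylation from -0.78 to 1.06. The control-spot scale, the probe chosen on the 2 arrays and the dim floor were chosen after seeing the data. The causes were not tested. Signals near background limit the dim side: 2311 of the ES calls and 1706 of the BMMNC calls rest on a probe not well above background on the other array.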

Other observations

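Olfactory receptor genes, which neither sample is known to use, were a further check on dim signals. Of 883 on the array, 142 were above background on at least 1 of the arrays. Of these, 13 were at least 4-fold higher in ES cells and 27 in BMMNCs. The median difference was -0.51, which the control-spot scale turns positive. The share on the BMMNC side lay above the 14% of all genes with a symbol, and that on the ES side below their 18.8%. Genes that neither sample is known to use thus also passed 4-fold. The check therefore does not show that 4-fold calls on dim signals are reliable. Guanylate-binding proteins of the interferon-gamma response were higher in BMMNCs in 9 of 12 cases. Interleukin receptors were on that side in 16 of 25 and C-type lectins and Siglecs in 17 of 23. Aminoacyl-tRNA synthetases, which load amino acids for protein synthesis, had 0 of 15 genes past 4-fold in either direction and a median of 0.72.

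A few genes had probes that did not agree in direction. Thpo read -0.11 on its chosen probe and 4.54 on the other, and Sycp2 -3.84 and 2.93. On the replicate spots of a probe, the median SD was 0.061 on the ES array and 0.060 on the BMMNC array (168 and 150 probes), far below the differences described, and it covers spots of an array alone.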
